A study of Mus musculus with 12 samples.

Results

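NG2 knockout fibrochondrocytes were compared between the libraries titled Opti and the libraries titled Norm. The comparison took the raw counts of 6 of the 12 libraries of the series, 3 against 3. The cells were primary mouse fibrochondrocytes, the fibroblast- and chondrocyte-like cells of the mandibular condylar cartilage of the jaw joint, taken from pups aged 10 to 14 days and collected at passage 4 by the labels. NG2/CSPG4 is a transmembrane chondroitin sulfate proteoglycan that binds collagen VI, growth factors and beta1 integrin, and the study asked how it bears on motility when serum is withdrawn. All 6 libraries came from mice in which Cspg4 was deleted by a reporter-tagged allele, made from a knockout-first KOMP allele by a cross to a Cre line and backcrossed to C57BL/6J. The other 6 libraries came from wild type C57BL/6J cells in the same 2 media, and their response is set beside that of knockout cells. They also entered the shared fit, so the filter, the scaling and the spread behind each knockout p-value rest partly on them.

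Norm medium was AMEM with heat-inactivated fetal bovine serum, L-glutamine, penicillin and Plasmocin. Opti medium was Opti-MEM with L-glutamine, penicillin and Plasmocin and without added serum, which is the serum starvation arm of the study. The basal medium and the serum changed together, so they cannot be told apart. For the knockout libraries the labels contradict each other, because each library titled Opti has the AMEM growth medium as its treatment entry and each library titled Norm has the serum-free medium. For wild type libraries title and treatment entry give the same medium. Groups are named here by title, as KO_Opti and KO_Norm, and every difference is KO_Opti minus KO_Norm. If the treatment entry holds instead, each value described as higher in KO_Opti was higher in the serum-containing AMEM, each value described as lower was lower there, and no p-value changes. The labels do not say whether the 3 libraries of a group came from separate animals or cultures, although the study's methods name 3 biological replicates, and the p-values therefore measure the spread between these libraries.

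Serum supplies growth factors, lipoprotein cholesterol and adhesion proteins to cultured cells, and its removal is a standard way to drive fibroblasts out of the cell cycle. Cells sense sterol supply through SREBP-2, which turns on the genes of cholesterol synthesis and uptake when membrane sterol is low, and through LXR, which turns on sterol export genes when it is high. Amino acid shortage and other stresses act through ATF4, lysosomal demand through the MiT/TFE factors TFEB and TFE3, and growth factor and actin signals through SRF, its cofactors and the ERK-driven immediate early genes. The gene lists below follow these systems and the matrix, adhesion and motility genes of the study's subject.

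The 6 knockout libraries held between 63979224 and 71448484 counts, and all 12 held between 51546504 and 71448484. The first principal component of the 6 libraries carried 46.5% of the variance and separated KO_Opti from KO_Norm. On raw counts the separation was less clean. The chi-square per degree of freedom of KO_Norm replicate 1 was 158.62 against KO_Opti replicate 2. It was 243.74 and 175.01 against KO_Norm replicates 2 and 3, and 513.73 and 231.73 against KO_Opti replicates 1 and 3. Transcripts of the deleted gene did not check the medium labels: Cspg4 was at 16.6, 10.8 and 11.8 CPM in KO_Norm and 12.4, 10.5 and 12.97 CPM in KO_Opti, below the range of 113.5 to 216.3 CPM in wild type libraries, and the groups were not separated by the test (log2 fold change -0.12 ± 0.17, adjusted p = 0.662). CPM values, which are counts relative to the library total, are scaled by TMM factors throughout, and each fold change is given on the log2 scale with its standard error (SE).

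Several library properties moved with the groups. Xist, the noncoding RNA made from the inactive X chromosome of female cells, was at 58.7, 33.3 and 49.7 CPM in KO_Norm and 449.5, 217 and 362 CPM in KO_Opti (log2 fold change 2.86 ± 0.30, adjusted p = 9.84e-05). Summed Y-linked expression over Ddx3y, Uty, Kdm5d and Eif2s3y was 129.3, 116.9 and 112.7 CPM in KO_Norm and 82.1, 73.5 and 75.9 CPM in KO_Opti. Both quantities were present in every library, so each library held RNA from male and from female cells, and the balance of these transcripts differed between the groups without overlap. The mix of sexes and the medium cannot be told apart in this comparison. Xist is itself a noncoding RNA and, like Meg3 and Dnm3os below, was highest in KO_Opti replicate 1. The part of the wider noncoding shift in the Xist values was not tested.

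Markers of myeloid cells were lower in KO_Opti as a block. Their summed level over 17 markers was 677.1, 742.3 and 690.5 CPM in KO_Norm and 261.0, 232.5 and 244.1 CPM in KO_Opti, and 16 of the 17 fell, with a median log2 fold change of -1.49. The lysosomal protease gene Ctss was at 38.4, 47.1 and 38.5 CPM in KO_Norm and 8.15, 8.67 and 9.23 CPM in KO_Opti (log2 fold change -2.25 ± 0.19, adjusted p = 2.37e-05), and the complement gene C1qa, made by macrophages, fell by 2.0. Ptprc, which encodes the leukocyte antigen CD45, was at 5.10, 4.55 and 4.67 CPM in KO_Norm and 1.55, 1.43 and 1.67 CPM in KO_Opti. Defining markers of other lineages were low: summed endothelial markers reached at most 13.8 CPM, erythroid markers 5.72 CPM and lymphoid markers 0.141 CPM in any knockout library. Osteoclast markers summed to at most 18.0 CPM, and 2 of 4 tested fell, among them Acp5 at -1.11 ± 0.16. Summed mural markers reached 3.35 CPM, skeletal muscle markers 6.24 CPM and adipocyte markers 18.0 CPM at most, and markers of glia and neurons summed to between 188.9 and 369.1 CPM. Most of this last sum was Ncam1, an adhesion molecule that mesenchymal cells also make, at 282, 307 and 259.9 CPM in KO_Norm and 123, 148 and 148 CPM in KO_Opti (log2 fold change -1.02 ± 0.10, adjusted p = 6.13e-05). Epithelial markers did not follow the groups, with Krt8 at 4.40, 5.66 and 0 CPM in KO_Norm and 0.114, 10.3 and 9.67 CPM in KO_Opti. Summed mesenchymal and fibrochondrocyte markers were 80160, 60890 and 67170 CPM in KO_Norm and 32460, 46840 and 43780 CPM in KO_Opti, far above the other marker sums. Most of it was Col1a1, a collagen of fibrous tissue, at 46810, 37140 and 40640 CPM in KO_Norm and 17910, 26620 and 24410 CPM in KO_Opti. The sum therefore does not set fibrochondrocytes apart from other mesenchymal cells. In bulk RNA, fewer cells of a type and less RNA per cell cannot be told apart.

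KO_Opti replicate 1 stood apart in mitochondrial and noncoding RNA content. Mitochondrial transcripts took 5.90, 2.20 and 3.0% of counts in the 3 KO_Opti libraries and 1.43, 2.99 and 1.82% in the 3 KO_Norm libraries. Noncoding genes took 3.95, 2.34 and 2.77% in KO_Opti and 1.82, 2.48 and 2.18% in KO_Norm. An annotated ribosomal RNA entry, CT010467, was at 6802, 31290 and 36410 CPM in KO_Norm and at 5653, 5394 and 3791 CPM in KO_Opti. This entry did not set replicate 1 apart. It was lower in every KO_Opti library than in every KO_Norm library, so it moved with the groups. The part of these properties in the results was not tested, except where values without replicate 1 are given.

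**Figure D1:**
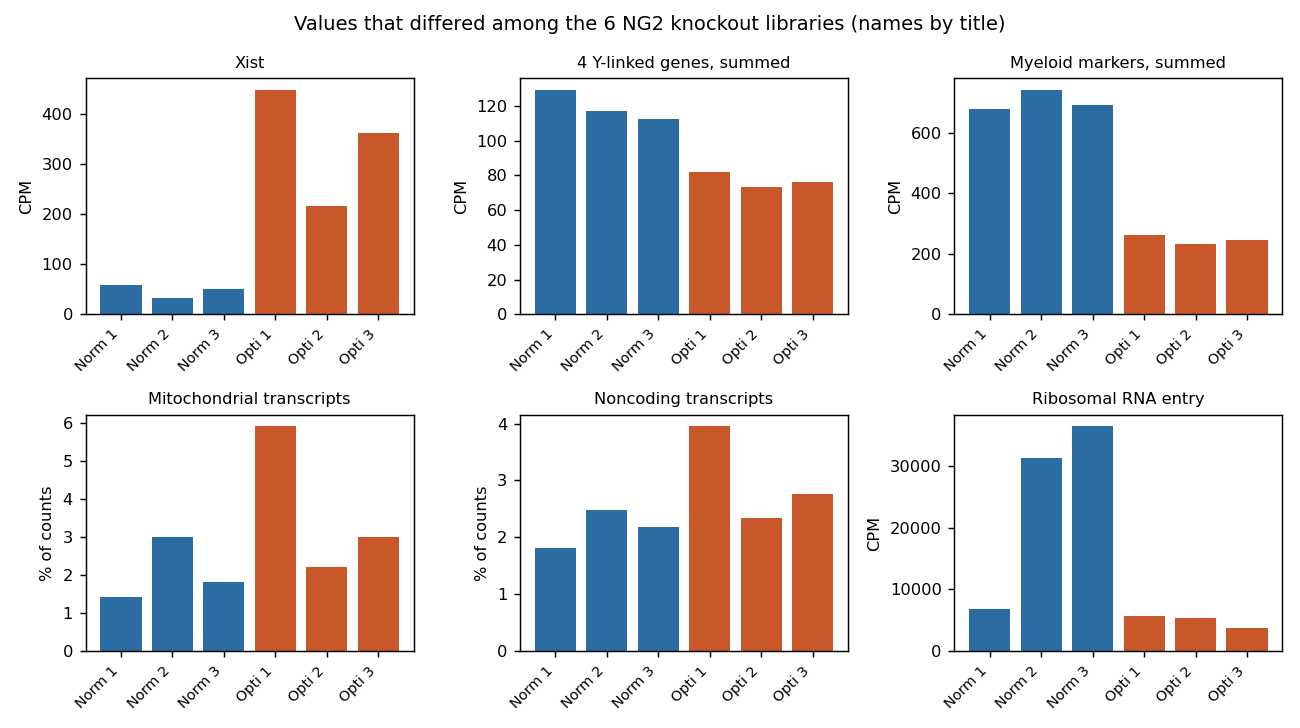
Bars give 6 quantities in each NG2 knockout library, with KO_Norm in blue and KO_Opti in orange by title: Xist, the summed Y-linked genes, the summed myeloid markers and the ribosomal RNA entry in CPM, and mitochondrial and noncoding transcripts as a percentage of counts. Xist, the Y-linked and myeloid sums and the ribosomal RNA entry separate the groups, while mitochondrial transcripts are highest in KO_Opti replicate 1 at 5.90%.

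Of 19118 genes tested, 3709 passed an adjusted p of 0.05 in edgeR's quasi-likelihood test with Benjamini-Hochberg adjustment, which is 19.4% of them. In KO_Opti 1604 rose (8.39% of genes tested) and 2105 fell (11.0%), and 1228 of the 3709 changed at least 2-fold. Among these larger changes 751 were increases and 477 were decreases. The groups did not overlap for 3641 of the 3709 genes. Over all genes tested, 17.9% were higher in every KO_Opti library than in every KO_Norm library and 20.7% were lower.

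The balance of directions depended on the scaling. With library size in place of TMM factors, 2630 genes rose and 1124 fell (70.1% of calls higher, against 43.2% with TMM), and the median log2 fold change of all genes moved from 0.00 to 0.15. On the deposited FPKM values, with limma on log2(FPKM + 0.1), 2096 rose and 901 fell (69.9% higher, median 0.11), and with a pseudocount of 1 the split was 2189 and 880 (71.3% higher). All directions below are relative to the TMM centre. Each list count below is to be read beside the 8.39% of all genes that rose and the 11.0% that fell. The number of calls also rested on single libraries: it was 2091 without KO_Opti replicate 1, 2255 without KO_Opti replicate 3, 2252 without KO_Norm replicate 2 and 2139 without KO_Norm replicate 3. With the knockout libraries alone it was 3254, and at an adjusted p of 0.01 it was 1638. With summed Y-linked expression as a covariate it was 1957. That sum differed between the 2 groups without overlap, so the covariate takes up part of the contrast itself. Fewer calls with it, here and in the lists below, cannot tell the mix of sexes from the medium.

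The cholesterol pathway was higher in KO_Opti almost as a whole. Of 25 genes of cholesterol synthesis and uptake, 20 rose, 1 fell and 4 did not pass the test, with a median log2 fold change of 0.65 against 0.00 over all genes. In 21 of the 25 the 3 KO_Opti libraries were all above the 3 KO_Norm libraries, beside 17.9% of all genes. Insig1, which retains the SREBP precursor in the endoplasmic reticulum and is itself an SREBP target, was at 108, 116 and 102 CPM in KO_Norm and 211, 225 and 200.3 CPM in KO_Opti (log2 fold change 0.97 ± 0.09, adjusted p = 5.52e-05). Lss, which closes the sterol ring, was at 65.2, 55.4 and 59 CPM in KO_Norm and 113, 132 and 105 CPM in KO_Opti (log2 fold change 0.96 ± 0.10, adjusted p = 0.000102). The groups did not overlap for either gene, and each was about 2-fold higher in KO_Opti.

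Enzymes earlier in the pathway and its regulator moved with them. The mevalonate pathway enzyme genes Hmgcs1 and Idi1 rose by 0.81 ± 0.12 and 1.23 ± 0.18. Srebf2, which encodes SREBP-2, rose by 0.41 ± 0.12 and was at 196, 182 and 169.6 CPM in KO_Norm and 199.7, 289 and 239 CPM in KO_Opti, with KO_Opti replicate 1 only just above the highest KO_Norm library. With each library left out in turn, 15 to 19 of the 25 genes rose, and with the Y-linked covariate 11 rose.

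Sterol export genes moved the other way. Of 8 such genes 4 fell and none rose, with a median of -0.55. Abca1, the cholesterol efflux transporter and a textbook LXR target, was at 67.4, 35.03 and 47.6 CPM in KO_Norm and 17.9, 25.2 and 20.5 CPM in KO_Opti (log2 fold change -1.24 ± 0.25, adjusted p = 0.0046). Abcg1 fell by 1.49, Mylip, a sterol-induced ubiquitin ligase, by 0.63, and Lpcat3, a phospholipid remodelling enzyme, by 0.56. Abcg1 was low, at a mean of 1.86 CPM in KO_Norm and 0.662 CPM in KO_Opti. Abca1 and Abcg1 are also abundant in macrophages, whose markers were lower in the same libraries, and the part of those cells was not tested. With the Y-linked covariate 1 of the 4 passed. Genes of fatty acid synthesis and desaturation, which SREBP-1 controls, had 1 of 16 higher and 1 lower, beside 8.39% and 11.0% of all genes. Srebf1 was at 114, 94.9 and 98.7 CPM in KO_Norm and 96.6, 113 and 94.99 CPM in KO_Opti. The number of these genes that rose was 3 without KO_Opti replicate 1, 4 without KO_Norm replicate 1, 3 with DESeq2 and 5 with library size scaling, and none rose without KO_Opti replicate 2, KO_Norm replicate 2 or KO_Norm replicate 3 or with the Y-linked covariate.

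To show the sequence around the start of the sterol genes, 250 bases upstream of the RefSeq start site were read (GRCm38.p6). Of 25 genes, 17 had an entry in the table, with 20 promoters between them. The sterol regulatory element was searched as TCACNCCAC and the NF-Y box, a common partner of SREBP, as CCAAT, both on either strand. The first stood in 1 of the 20 promoters, that of Hmgcs1, and in 1.24% of all 32851 promoters of 300 bases. The second stood in 16 of the 20 (80.0%) and in 37.4% of all. It also stood in 18 of 22 promoters of the mitosis list (81.8%), so it was not particular to the sterol genes. The other lists searched lay between 33.3% and 54.5%. A match describes the letters and is not a site. The Hmgcs1 promoter carries the element in capitals (chr13:119690101-119690350, plus strand) and the Idi1 promoter 2 NF-Y boxes in capitals, read as ATTGG on this strand (chr13:8885356-8885605, plus strand).
Hmgcs1: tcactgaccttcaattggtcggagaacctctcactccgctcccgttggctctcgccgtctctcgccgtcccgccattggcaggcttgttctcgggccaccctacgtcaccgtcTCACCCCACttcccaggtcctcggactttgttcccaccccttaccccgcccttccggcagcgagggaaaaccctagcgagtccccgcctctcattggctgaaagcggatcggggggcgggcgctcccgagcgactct
Idi1: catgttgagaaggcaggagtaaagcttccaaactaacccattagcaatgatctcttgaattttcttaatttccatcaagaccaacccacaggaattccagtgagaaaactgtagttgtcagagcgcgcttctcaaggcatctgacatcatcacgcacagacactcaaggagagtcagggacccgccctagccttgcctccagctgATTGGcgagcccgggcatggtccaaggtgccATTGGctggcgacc

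Genes of amino acid supply were lower in KO_Opti. Of 24 genes of amino acid synthesis and transport 11 fell, none rose and 13 did not pass the test, with a median of -0.39. Psat1, of serine synthesis, was at 198, 241 and 233 CPM in KO_Norm and 102, 118 and 110.2 CPM in KO_Opti (log2 fold change -1.02 ± 0.13, adjusted p = 0.000348). Phgdh, the first enzyme of the same branch, was at 351, 372 and 385 CPM in KO_Norm and 191, 226 and 221 CPM in KO_Opti (log2 fold change -0.80 ± 0.10, adjusted p = 0.000346), and its groups did not overlap either. The mitochondrial folate enzymes Shmt2 and Mthfd1l fell by 0.61 and 0.72. With each library left out in turn 9 to 11 genes fell, and with the Y-linked covariate 7 did.

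The cytosolic aminoacyl-tRNA synthetases, which charge tRNAs with amino acids, followed the same direction with small changes. Of 20 genes 15 fell and none rose, with a median of -0.37. Wars, the tryptophan enzyme, was at 175, 159 and 167 CPM in KO_Norm and 88.2, 113 and 99.96 CPM in KO_Opti (log2 fold change -0.73 ± 0.10, adjusted p = 0.000408). Gars, the glycine enzyme, was at 450.1, 489 and 504 CPM in KO_Norm and 251, 321 and 302 CPM in KO_Opti (log2 fold change -0.72 ± 0.10, adjusted p = 0.000696). No Wars or Gars value of KO_Opti reached the KO_Norm range. Farsb and Hars fell by 0.71 and 0.57, and Aars, the alanine enzyme, by 0.32. These small changes were sensitive to scaling and to single libraries. Only 7 passed with library size in place of TMM factors, 8 without KO_Opti replicate 1, KO_Opti replicate 3 or KO_Norm replicate 3, 9 without KO_Norm replicate 2 and 6 with the Y-linked covariate.

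The regulators above these genes moved less. In the core list of the integrated stress response, the program that ATF4 carries out, 3 of 16 genes fell and none rose. Atf4 itself was at 380.1, 440.2 and 454 CPM in KO_Norm and 470.4, 472 and 459 CPM in KO_Opti (log2 fold change 0.14 ± 0.11, adjusted p = 0.409), while Ddit3, the gene of the factor CHOP, was at 157, 168 and 171 CPM in KO_Norm and 193, 176 and 161 CPM in KO_Opti. The Ddit3 values overlapped between the groups, and the Atf4 values lay close together without overlapping. A second entry named Ddit3 shares bases with this one on the same strand, so the Ddit3 level is uncertain. Asns, asparagine synthetase and a textbook ATF4 target, was at 284, 354 and 349.7 CPM in KO_Norm and 197, 213 and 208 CPM in KO_Opti (log2 fold change -0.68 ± 0.11, adjusted p = 0.00113). Gdf15, a stress-induced cytokine, fell by 1.85 and Ddit4, an inhibitor of mTOR complex 1, by 0.46. Gdf15 was low, at a mean of 2.81 CPM in KO_Norm and 0.778 CPM in KO_Opti.

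Letters of the CCAAT/enhancer-ATF response element, searched as TGATGNAA on both strands, stood in 5 of the 13 synthetase promoters in the table (38.5%; Aars, Gars, Iars, Tars and Yars) and in 3.97% of all promoters. Of these genes Iars did not pass the test and the others fell. In the amino acid list 4 of 22 promoters held it (18.2%). The match is in capitals in the 250 bases upstream of Aars (chr8:111033592-111033841, plus strand) and Gars (chr6:55037751-55038000, plus strand), where it reads on the opposite strand.
Aars: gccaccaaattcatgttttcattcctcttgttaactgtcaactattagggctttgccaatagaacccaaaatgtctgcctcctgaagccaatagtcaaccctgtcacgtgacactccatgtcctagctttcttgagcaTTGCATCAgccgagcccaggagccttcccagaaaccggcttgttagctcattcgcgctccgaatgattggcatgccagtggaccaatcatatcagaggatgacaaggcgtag
Gars: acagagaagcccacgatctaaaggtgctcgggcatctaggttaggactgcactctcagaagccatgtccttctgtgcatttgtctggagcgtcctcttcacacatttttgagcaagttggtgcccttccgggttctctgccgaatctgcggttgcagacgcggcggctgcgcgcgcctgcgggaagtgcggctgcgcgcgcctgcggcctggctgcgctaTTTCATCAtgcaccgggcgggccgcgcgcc

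Txnip had the smallest unadjusted p of the 19118 genes tested (1.02e-10). Its decrease was the second largest among called protein-coding or descriptively named genes whose groups did not overlap and whose knockout mean reached 5 CPM. Txnip, a glucose-responsive arrestin that limits glucose uptake and binds thioredoxin, was at 165, 118 and 133 CPM in KO_Norm and 12.9, 14.4 and 16.1 CPM in KO_Opti (log2 fold change -3.26 ± 0.17, adjusted p = 1.27e-06). All 3 KO_Opti libraries lay far below every KO_Norm library. Arrdc4, a related arrestin that responds to the same sugar-sensing factor, was at 23.1, 17.1 and 18.9 CPM in KO_Norm and 8.90, 6.34 and 7.67 CPM in KO_Opti (log2 fold change -1.37 ± 0.17, adjusted p = 0.000273). Cpxm1, a secreted carboxypeptidase-like protein, was at 57.2, 57.01 and 53.9 CPM in KO_Norm and 17.04, 17.3 and 18.9 CPM in KO_Opti (log2 fold change -1.66 ± 0.09, adjusted p = 1.27e-06), and was added after its values were seen. Txnip and Arrdc4 belong to a list of quiescence and FOXO targets in which 6 of 20 genes fell and 4 rose. The 4 increases were Bcl6, Irs2, Map1lc3b and Cited2, and between 1 and 2 of them passed without KO_Opti replicate 1, KO_Opti replicate 3 or any KO_Norm library.

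Glycolysis genes were lower in KO_Opti. Of 20 entries, with the aldolase symbol standing for a pair of loci, 9 fell and 1 rose, with a median of -0.45. Eno1, enolase, was at 596, 683 and 670.1 CPM in KO_Norm and 324, 399.9 and 400.4 CPM in KO_Opti (log2 fold change -0.79 ± 0.10, adjusted p = 0.00033). Pkm, pyruvate kinase, was at 1143, 1236 and 1120 CPM in KO_Norm and 621, 792 and 738 CPM in KO_Opti (log2 fold change -0.70 ± 0.10, adjusted p = 0.000829). In neither gene did the groups overlap, although reads of Eno1 may be shared with its near-identical copy Eno1b, so its level is uncertain. Tpi1 and Ldha fell by 0.61 and 0.63, and Gapdh, which the study used as a reference gene, was at 18.8, 24.8 and 22.7 CPM in KO_Norm and 29.6, 21.2 and 22.5 CPM in KO_Opti (log2 fold change 0.14 ± 0.14, adjusted p = 0.533). Gapdh has many near-identical pseudogenes that may take part of its reads, so its level is uncertain. The increase was Car9, a hypoxia-induced carbonic anhydrase, at 0.165, 0.397 and 0.478 CPM in KO_Norm and 1.01, 1.10 and 0.886 CPM in KO_Opti (log2 fold change 1.52 ± 0.49, adjusted p = 0.0455). With each library left out in turn 8 to 10 entries fell, and with the Y-linked covariate 9 did.

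Lysosomal genes fell in KO_Opti. Of 31 lysosomal and MiT/TFE target genes 16 fell, 2 rose and 13 did not pass the test, with a median of -0.36. Ctsb, the protease cathepsin B, was at 1344, 1409 and 1318 CPM in KO_Norm and 777, 959 and 919 CPM in KO_Opti (log2 fold change -0.62 ± 0.10, adjusted p = 0.00118). Ctsz, another cathepsin, fell by 0.80, and Atp6v0d2, a proton pump subunit known from osteoclasts and macrophages, by 1.63. The 2 increases were in the lysosomal calcium channel Mcoln1 (0.33 ± 0.10) and in Flcn (0.36 ± 0.08), a regulator of TFE3. Tfeb and Tfe3 themselves were at 0.14 ± 0.12 and -0.02 ± 0.08 and did not pass. Summed myeloid markers were lower in the same 3 libraries, and the part of macrophages, which are rich in lysosomes, was not tested. The number that fell was 10 without KO_Opti replicate 1 or KO_Norm replicate 3, 9 without KO_Opti replicate 3 or KO_Norm replicate 2, 7 with library size scaling and 6 with the Y-linked covariate.

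The CLEAR element of lysosomal promoters, searched as the palindrome TCACGTGA, stood in 6 of 30 promoters of the list (20%) and in 0.974% of all promoters. The 6 belonged to Atp6v0d1, Atp6v1a, Ctsa, Ctsd, Gla and Mcoln1. Of these Atp6v0d1, Ctsa and Gla fell, Mcoln1 rose, and Atp6v1a and Ctsd did not pass. Gla, the alpha-galactosidase, was at 31.4, 42.5 and 32.8 CPM in KO_Norm and 23.1, 27.3 and 25.3 CPM in KO_Opti (log2 fold change -0.50 ± 0.15, adjusted p = 0.0361). Its promoter holds 2 copies, in capitals (chrX:134601006-134601255, minus strand).
Gla: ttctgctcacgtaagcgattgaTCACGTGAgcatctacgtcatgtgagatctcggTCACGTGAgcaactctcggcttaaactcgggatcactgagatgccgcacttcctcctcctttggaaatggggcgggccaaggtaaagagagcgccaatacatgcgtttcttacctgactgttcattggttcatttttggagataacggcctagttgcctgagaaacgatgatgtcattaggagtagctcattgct

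Interferon-stimulated genes had the lowest median of the pathway lists. Of 37 genes 13 fell and none rose, with a median of -0.68. Isg15, a ubiquitin-like antiviral protein, was at 11.7, 23.97 and 6.61 CPM in KO_Norm and 3.48, 3.95 and 4.04 CPM in KO_Opti (log2 fold change -1.88 ± 0.35, adjusted p = 0.00295). Ifit1, which binds viral RNA, was at 25.2, 53.1 and 12.4 CPM in KO_Norm and 7.48, 11.1 and 8.93 CPM in KO_Opti (log2 fold change -1.72 ± 0.38, adjusted p = 0.00821). The groups did not overlap, but KO_Norm replicate 2 was the highest library of both genes and KO_Norm libraries differed among themselves by over 3-fold. Psmb8, an immunoproteasome subunit, was at 5.98, 6.37 and 6.67 CPM in KO_Norm and 2.66, 3.81 and 2.97 CPM in KO_Opti (log2 fold change -1.01 ± 0.15, adjusted p = 0.000965). Gbp2 fell by 1.0 and Tap1, which loads peptides for antigen presentation, by 0.65. Without KO_Norm replicate 2, KO_Opti replicate 1 or KO_Opti replicate 3, 8 genes fell, and with the Y-linked covariate 1 did.

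The interferon response element was searched as GAAANNGAA on both strands. It stood in 15 of 34 promoters of the list (44.1%) and in 8.56% of all promoters. Isg15, Ifit1 and Gbp2 were among the genes with a match that fell, but most of the genes with a match did not pass the test. The 250 bases upstream of Isg15 (chr4:156200819-156201068, minus strand) and of Ifit1 (chr19:34640639-34640888, plus strand) each hold 3 matches, in capitals. Those of Isg15 run into each other, while in Ifit1 the match nearest the start site stands apart from the other pair.
Isg15: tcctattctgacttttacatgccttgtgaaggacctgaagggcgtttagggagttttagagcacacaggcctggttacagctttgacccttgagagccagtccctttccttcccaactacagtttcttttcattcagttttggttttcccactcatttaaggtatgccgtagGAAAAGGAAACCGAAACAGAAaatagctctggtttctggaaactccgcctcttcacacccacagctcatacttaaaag
Ifit1: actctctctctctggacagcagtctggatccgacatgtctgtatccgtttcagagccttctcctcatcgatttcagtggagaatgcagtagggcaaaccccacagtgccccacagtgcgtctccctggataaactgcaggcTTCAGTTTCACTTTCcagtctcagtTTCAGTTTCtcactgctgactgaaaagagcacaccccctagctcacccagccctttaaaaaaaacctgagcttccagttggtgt

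Matrix genes made up a large block of decreases. Of 31 genes of the fibrillar matrix and its crosslinking 18 fell, 1 rose and 12 did not pass the test, with a median of -0.52. Col1a1, the main collagen of fibrous tissue, was at 46810, 37140 and 40640 CPM in KO_Norm and 17910, 26620 and 24410 CPM in KO_Opti (log2 fold change -0.85 ± 0.16, adjusted p = 0.00287). Lum, a leucine-rich proteoglycan of collagen fibrils, was at 477, 626 and 597 CPM in KO_Norm and 138, 171 and 165 CPM in KO_Opti (log2 fold change -1.84 ± 0.15, adjusted p = 2.46e-05). Dcn, decorin, of the same family, fell by 1.28, and the minor fibril collagen Col5a3 by 1.71. The groups did not overlap in these genes. Fn1, fibronectin, did not pass the test (-0.31 ± 0.27, adjusted p = 0.471) and took the most counts of any gene in the KO_Opti libraries, while Col1a1 did so in the KO_Norm libraries.

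Eln, which encodes elastin, was the single increase among the fibrillar matrix genes. Eln was at 1.44, 1.56 and 1.09 CPM in KO_Norm and 6.45, 6.85 and 6.10 CPM in KO_Opti (log2 fold change 2.25 ± 0.23, adjusted p = 7.83e-05) with no overlap, so that every library was under 7 CPM. With each library left out in turn 13 to 18 matrix genes fell. With the Y-linked covariate 8 did, and with log2(FPKM + 0.1) 11 did.

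Collagen VI, the matrix ligand of NG2, fell together with basement membrane genes. Of 17 genes 11 fell and none rose, with a median of -0.58. Col6a2 was at 2438, 1948 and 2292 CPM in KO_Norm and 862, 1218 and 1138 CPM in KO_Opti (log2 fold change -1.05 ± 0.14, adjusted p = 0.00033). Col6a1 was at 2596, 1882 and 2283 CPM in KO_Norm and 1044, 1447 and 1329 CPM in KO_Opti (log2 fold change -0.82 ± 0.14, adjusted p = 0.00208). Col6a3 was at 2229, 1103 and 1550 CPM in KO_Norm and 676, 997 and 854 CPM in KO_Opti (log2 fold change -0.95 ± 0.24, adjusted p = 0.0148). KO_Opti replicate 1 was the lowest library for all 3 chains, and none of the 3 overlapped between groups. The basement membrane genes Nid1, nidogen, and Col18a1 were at -1.10 ± 0.18 and -1.14 ± 0.15. The number that fell was 5 without KO_Opti replicate 1, 6 without KO_Opti replicate 3 or KO_Norm replicate 1, and 3 with the Y-linked covariate.

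Cartilage genes had the second-highest median of the pathway lists, 0.47, although most did not pass the test. Of 30 listed genes 27 were tested, 7 rose, 2 fell and 18 did not pass. Cilp2, a cartilage intermediate layer protein, was at 8.42, 6.81 and 5.93 CPM in KO_Norm and 29.3, 35.4 and 34.6 CPM in KO_Opti (log2 fold change 2.23 ± 0.22, adjusted p = 7.69e-05). Its relative Cilp rose by 0.90, Prg4, the lubricin of joint surfaces, by 0.69, and Col11a2 by 1.43. Col2a1, the defining collagen of cartilage, went the other way, at 80.01, 73.9 and 102 CPM in KO_Norm and 36.5, 49.7 and 48.3 CPM in KO_Opti (log2 fold change -0.93 ± 0.14, adjusted p = 0.00088). Col10a1, of hypertrophic chondrocytes, fell by 2.41 at a low level, with a mean of 1.07 CPM in KO_Norm and 0.201 CPM in KO_Opti. Its locus overlaps another gene on the opposite strand, so its level is uncertain. Acan, the aggrecan core protein, was at 20.8, 8.93 and 13.7 CPM in KO_Norm and 18.3, 25.7 and 27.7 CPM in KO_Opti (log2 fold change 0.72 ± 0.28, adjusted p = 0.088), and Sox9, the chondrocyte transcription factor, at 68.4, 67.6 and 59.8 CPM in KO_Norm and 66.6, 84.9 and 77.3 CPM in KO_Opti. The Acan groups overlapped through KO_Norm replicate 1. Without KO_Norm replicate 3, 4 genes rose, and with library size scaling 12 did.

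Mineralization genes were mixed, with 3 of 18 higher and 3 lower, beside 8.39% and 11.0% of all genes. Spp1, osteopontin, was at 2662, 4046 and 2871 CPM in KO_Norm and 1279, 1335 and 1356 CPM in KO_Opti (log2 fold change -1.27 ± 0.15, adjusted p = 0.000191), and Alpl, tissue-nonspecific alkaline phosphatase, fell by 0.69. Bglap, osteocalcin, rose by 1.73 and Omd, osteomodulin, by 0.88. Runx2, the transcription factor of bone formation, was at -0.03 ± 0.10. Without KO_Opti replicate 1 a single one of the 3 decreases passed. Spp1 is also made by macrophages, and their part was not tested. In the tendon list 3 of 11 genes fell and none rose: Egr1, Ecrg4 and Tnmd, the last at -1.17 ± 0.26. Tnmd was low, at a mean of 2.82 CPM in KO_Norm and 1.25 CPM in KO_Opti.

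Among matrix proteases and their inhibitors 9 of 29 fell and 1 rose, beside 11.0% and 8.39% of all genes. Plat, tissue plasminogen activator, was at 40.5, 37.9 and 42.4 CPM in KO_Norm and 17.4, 18.5 and 22.6 CPM in KO_Opti (log2 fold change -1.04 ± 0.11, adjusted p = 8.23e-05), and Timp1, a metalloprotease inhibitor, fell by 1.07. Mmp19 fell by 0.80 and Mmp23 fell by 0.86. The collagenase gene Mmp13 was at -0.04 ± 0.27 and the gelatinase gene Mmp2 at -0.05 ± 0.13, neither past the test. The increase was the aggrecanase-family gene Adamts9, by 1.03.

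Contractile genes fell in part. Of 23 actin, SRF and contractile genes 9 fell and 2 rose, with a median of -0.22. Tagln, transgelin, was at 516, 596 and 598 CPM in KO_Norm and 200.4, 173 and 190 CPM in KO_Opti (log2 fold change -1.60 ± 0.14, adjusted p = 2.46e-05). Acta2, smooth muscle actin, was at 1823, 1833 and 1801 CPM in KO_Norm and 1001, 1181 and 1179 CPM in KO_Opti (log2 fold change -0.70 ± 0.12, adjusted p = 0.00148). Actg2 fell by 1.79 and Myl9, the regulatory myosin light chain, by 0.68. Srf, the transcription factor that drives these genes, rose instead, at 39.98, 39.6 and 43.3 CPM in KO_Norm and 70.7, 71.6 and 74.9 CPM in KO_Opti (log2 fold change 0.82 ± 0.08, adjusted p = 7.47e-05). All KO_Opti libraries of Srf were above all KO_Norm libraries, and the same held in the other direction for Tagln. Actb, the study's loading control, was at 1296, 1545 and 1403 CPM in KO_Norm and 1148, 1353 and 1325 CPM in KO_Opti and did not pass (log2 fold change -0.15 ± 0.12). The counts were stable to single libraries, with 7 to 8 genes lower and 2 to 3 higher.

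The serum response element core, known as the CArG box, stood in 6 of 22 promoters of the contractile list (27.3%) and in 1.63% of all promoters. The 6 were Actg1, Cnn2, Filip1l, Myl9, Srf and Vcl, of which Myl9 fell and Srf rose. The Myl9 promoter carries it in capitals (chr2:156775214-156775463, plus strand).
Myl9: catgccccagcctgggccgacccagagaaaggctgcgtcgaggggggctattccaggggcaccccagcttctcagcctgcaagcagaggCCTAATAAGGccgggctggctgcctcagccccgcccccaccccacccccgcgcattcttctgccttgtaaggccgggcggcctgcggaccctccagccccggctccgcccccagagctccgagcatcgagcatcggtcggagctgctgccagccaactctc

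Immediate early genes, which respond within minutes to serum and growth factors, were lower in KO_Opti. Of 26 genes 10 fell and none rose, with a median of -0.34. Egr1 was at 191, 243 and 256 CPM in KO_Norm and 99.97, 111 and 95.5 CPM in KO_Opti (log2 fold change -1.17 ± 0.13, adjusted p = 0.000147). Fos was at 16.6, 25.1 and 23.99 CPM in KO_Norm and 10.04, 11.8 and 9.91 CPM in KO_Opti (log2 fold change -1.05 ± 0.18, adjusted p = 0.00201). The Egr1 groups did not overlap. Zfp36, which destabilises cytokine mRNAs, fell by 1.28, Ier2 fell by 0.94 and Junb fell by 0.70, whereas Myc was at -0.21 ± 0.08 and Jun at -0.15 ± 0.11, and neither passed. Without KO_Norm replicate 3, 6 genes fell, and with the Y-linked covariate 6 did.

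Readouts of the ERK pathway moved in the same direction. Of 14 feedback genes 5 fell and 1 rose. Dusp6, an ERK phosphatase induced by ERK signaling, was at 27.5, 25.2 and 29.4 CPM in KO_Norm and 20.4, 17.6 and 17.9 CPM in KO_Opti (log2 fold change -0.56 ± 0.10, adjusted p = 0.00205). Etv4 and Phlda1 were at -1.10 ± 0.19 and -1.04 ± 0.19, and the increase was the cytokine Lif, by 0.70. The kinase gene Mapk3, which encodes ERK1, was at 119, 148 and 139 CPM in KO_Norm and 73.2, 83.2 and 81.8 CPM in KO_Opti (log2 fold change -0.77 ± 0.10, adjusted p = 0.000313). With the Y-linked covariate 2 of the 5 passed.

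Targets of the mechanosensitive factors YAP and TAZ did not move as a block, with 3 of 22 higher and 2 lower, beside 8.39% and 11.0% of all genes. Ccn2, connective tissue growth factor, was at 186, 163 and 162 CPM in KO_Norm and 502, 514 and 576 CPM in KO_Opti (log2 fold change 1.64 ± 0.21, adjusted p = 0.000396). Ccn1, another textbook target, was at 371, 467 and 509.6 CPM in KO_Norm and 539, 515 and 543 CPM in KO_Opti (log2 fold change 0.24 ± 0.14, adjusted p = 0.245), with a gap between the groups that did not pass the test. Ajuba rose by 0.69, and the receptor Axl fell by 0.87. Without KO_Norm replicate 1, 5 genes rose.

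In the S phase list 5 of 29 genes fell, 1 rose and 23 did not pass the test, with a median of -0.01, beside 19.4% of all genes that passed in either direction. Ccne1, cyclin E1, was at 13.8, 17.9 and 18.3 CPM in KO_Norm and 6.44, 7.72 and 7.47 CPM in KO_Opti (log2 fold change -1.21 ± 0.15, adjusted p = 0.000265), and Mcm2, a replicative helicase subunit, fell by 0.53. Pcna, the proliferation marker of the study, was at 51.8, 54.97 and 54.3 CPM in KO_Norm and 61.7, 60.7 and 56.8 CPM in KO_Opti (log2 fold change 0.15 ± 0.14, adjusted p = 0.481). The KO_Opti libraries of Pcna were slightly above the KO_Norm libraries without passing the test. The number of S phase genes that fell was 1 without KO_Opti replicate 1, KO_Opti replicate 3, KO_Norm replicate 1 or KO_Norm replicate 3, 2 without KO_Norm replicate 2, and 3 without WT_Opti replicate 3.

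In the mitosis list 7 of 26 genes fell and none rose, with a median of -0.44, beside 11.0% of all genes that fell. In 16 of the 26 every KO_Opti library was below every KO_Norm library, beside 20.7% of all genes. Mki67, the standard proliferation antigen, was at 20.8, 13.3 and 15 CPM in KO_Norm and 8.49, 11.8 and 11.4 CPM in KO_Opti (log2 fold change -0.63 ± 0.21, adjusted p = 0.048). Ccnb2, cyclin B2, fell by 1.07 and Tpx2, a spindle factor, fell by 0.92. The kinase gene Cdk1 was at -0.38 ± 0.17 and did not pass. The number that fell was 2 without KO_Opti replicate 1 or KO_Norm replicate 1, 3 without KO_Opti replicate 3 or KO_Norm replicate 3, 4 without WT_Opti replicate 3, and 3 with library size scaling.

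In the list of G1 cyclins, kinases, CDK inhibitors and their regulators 5 of 17 genes fell, beside 11.0% of all genes. None rose and 12 did not pass the test, and the decreases included inhibitors and a kinase. Cdkn1a, the p53-induced inhibitor p21, was at 543, 602 and 593 CPM in KO_Norm and 285, 370 and 310.1 CPM in KO_Opti (log2 fold change -0.85 ± 0.12, adjusted p = 0.000641). Cdkn2a, the senescence-associated locus, fell by 1.06 and the kinase gene Cdk6 by 0.96, while Ccnd1, cyclin D1, was at -0.04 ± 0.09. Of 18 p53 targets 5 fell, beside 11.0% of all genes. Among these decreases were Bbc3 and Pmaip1, which encode pro-apoptotic proteins, at -1.08 ± 0.16 and -0.92 ± 0.18. The death receptor gene Fas rose by 1.09. Without KO_Opti replicate 1 or KO_Opti replicate 3, 3 p53 targets and 3 G1 genes fell, and 3 G1 genes fell without KO_Norm replicate 2 or KO_Norm replicate 3.

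Adhesion genes were lower in KO_Opti. Of 32 integrin and adhesion genes 14 fell and 1 rose, beside 11.0% and 8.39% of all genes. Their median was -0.31. Itgb1, the beta1 integrin that NG2 engages, was at 947, 798 and 776 CPM in KO_Norm and 469, 668 and 614 CPM in KO_Opti (log2 fold change -0.53 ± 0.14, adjusted p = 0.0179). Cd44, the hyaluronan receptor, was at 348, 379 and 372 CPM in KO_Norm and 139, 177 and 169.7 CPM in KO_Opti (log2 fold change -1.18 ± 0.11, adjusted p = 5.83e-05). Itga6, a laminin-binding chain, fell by 1.69 and Sdc2, a cell surface proteoglycan, by 0.76. The increase was Itga1, a collagen-binding chain, by 0.52. Its locus overlaps another entry on the same strand, so its level is uncertain. Without KO_Opti replicate 1, 9 genes fell. With library size scaling 8 did and with the Y-linked covariate 3 did.

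Motility genes were also mostly lower among those that passed, as were 56.8% of all calls. Of 41 genes 10 fell and 3 rose, beside 11.0% and 8.39% of all genes. Rhoa, the GTPase of contractility, was at 433, 572 and 539 CPM in KO_Norm and 348, 371 and 365 CPM in KO_Opti (log2 fold change -0.51 ± 0.11, adjusted p = 0.00589). Arpc2, a subunit of the actin-branching complex, fell by 0.61, Cdc42 by 0.44, Snai1 by 0.71 and the guidance receptor Robo2 by 1.07. The increases were Efnb2, Rnd3 and the hyaluronan synthase Has2. Without KO_Norm replicate 2 or KO_Norm replicate 3 a single gene rose. The decreases were small and depended on scaling: 6 passed with library size only and 2 on the FPKM values.

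Growth factor genes were mixed, with 6 of 37 lower and 4 higher, beside 11.0% and 8.39% of all genes. Pdgfa, a ligand that NG2 binds, was at 23.4, 28.6 and 26.4 CPM in KO_Norm and 14.4, 19.3 and 18.3 CPM in KO_Opti (log2 fold change -0.59 ± 0.17, adjusted p = 0.0306). Its receptor gene Pdgfra was at 56.4, 40.4 and 37.3 CPM in KO_Norm and 43.1, 58.4 and 58.2 CPM in KO_Opti (log2 fold change 0.25 ± 0.16, adjusted p = 0.316), and Pdgfrb and Fgf2 were at 0.19 ± 0.14 and 0.34 ± 0.13. Vegfd fell by 1.33 and Igfbp2 fell by 1.70, and Angpt1 rose by 1.07. The 4 increases became 1 without KO_Opti replicate 3, 2 without KO_Norm replicate 2, KO_Norm replicate 3 or WT_Opti replicate 2, and 9 with library size scaling or DESeq2. The other genes of the study's subject, Prkca, Mtor and Htra2, were at -0.32 ± 0.12, -0.07 ± 0.16 and 0.10 ± 0.11. In the list of 18 genes taken from the subject of the study 6 fell and none rose, and 3 fell without KO_Opti replicate 1 or with the Y-linked covariate.

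In the TGF-beta and BMP list 10 of 36 genes rose and 8 fell, beside 8.39% and 11.0% of all genes. Most of the decreases were in ligands and antagonists. The ligand gene Tgfb2 was at 43.3, 42.1 and 43.4 CPM in KO_Norm and 14.3, 17.8 and 17.2 CPM in KO_Opti (log2 fold change -1.39 ± 0.12, adjusted p = 3.37e-05), and the BMP antagonist Grem1 fell by 0.92. Target genes were among the increases. Id1, a direct BMP target, was at 5.40, 5.02 and 5.77 CPM in KO_Norm and 11.7, 9.92 and 8.99 CPM in KO_Opti (log2 fold change 0.92 ± 0.15, adjusted p = 0.00121), and Id2 and Id3 rose by 1.08 and 0.72. Skil and Smad7, feedback inhibitors of TGF-beta signaling, rose by 1.06 and 0.43, and so did the ligand gene Gdf10 and the antagonist gene Fst, by 0.62 and 0.44. This reading of roles was made after the values were seen. Without KO_Opti replicate 1, 5 genes fell, and with the Y-linked covariate 4 rose and 4 fell.

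In the Wnt and Hedgehog list 7 of 32 rose and 5 fell, beside 8.39% and 11.0% of all genes. Axin2, a textbook target of Wnt signaling, was at 7.78, 5.34 and 7.04 CPM in KO_Norm and 3.17, 3.56 and 4.16 CPM in KO_Opti (log2 fold change -0.89 ± 0.19, adjusted p = 0.00604). Rspo2, a Wnt-enhancing ligand, fell by 1.98, while Rspo3, of the same family, rose by 1.03, its receptor gene Lgr4 by 0.89 and Wnt10b by 1.17. Without KO_Norm replicate 3, 3 genes fell. In the Notch list a single gene of 14 passed, beside 19.4% of all genes: the ligand Jag1, which rose by 1.19.

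Of 27 chemokine and inflammatory genes 6 fell, 1 rose and 20 did not pass the test, beside 11.0% of all genes that fell. Il1rl1, the receptor for interleukin-33, and Ptgs1, a prostaglandin synthase, fell by 1.40 and 1.45. Il6 was at 0.120, 0.473 and 0.216 CPM in KO_Norm and 3.37, 1.27 and 3.77 CPM in KO_Opti (log2 fold change 3.37 ± 0.85, adjusted p = 0.0159), all at a low level. Complement genes of mesenchymal cells fell in 5 of 10 cases, among them Serping1, the C1 inhibitor, at 13.02, 14.3 and 13.03 CPM in KO_Norm and 5.96, 5.79 and 7.94 CPM in KO_Opti (log2 fold change -1.04 ± 0.14, adjusted p = 0.000555). With the Y-linked covariate 2 of the 5 passed.

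Of 26 genes of oxidative stress and NRF2, 9 fell and 3 rose, beside 11.0% and 8.39% of all genes. Hmox1, heme oxygenase, was at 906, 1094 and 998 CPM in KO_Norm and 542, 609 and 534 CPM in KO_Opti (log2 fold change -0.83 ± 0.12, adjusted p = 0.000808). G6pdx, which makes NADPH, fell by 0.69 and Gsta4 by 1.21, while Nqo1, a textbook NRF2 target, rose by 0.41 and Gpx3 by 0.95. The 3 increases became 1 without KO_Opti replicate 2, KO_Opti replicate 3, KO_Norm replicate 1, KO_Norm replicate 3 or WT_Opti replicate 2. In the endoplasmic reticulum list 6 of 22 fell and 3 rose, beside the same shares of all genes. The chaperone gene Hspa5 was at -0.35 ± 0.13 and did not pass, Pdia6 fell by 0.51, and the stress sensor Ern1 rose by 0.75. On the FPKM values none of the 22 was lower. Of 22 ribosome biogenesis genes 5 fell and 1 rose, beside 11.0% and 8.39% of all genes. Dkc1, a snoRNP enzyme, was among the decreases at -0.65 ± 0.11. The increase was the nucleolar GTPase gene Gnl3, at 0.56 ± 0.14.

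**Figure D2:**
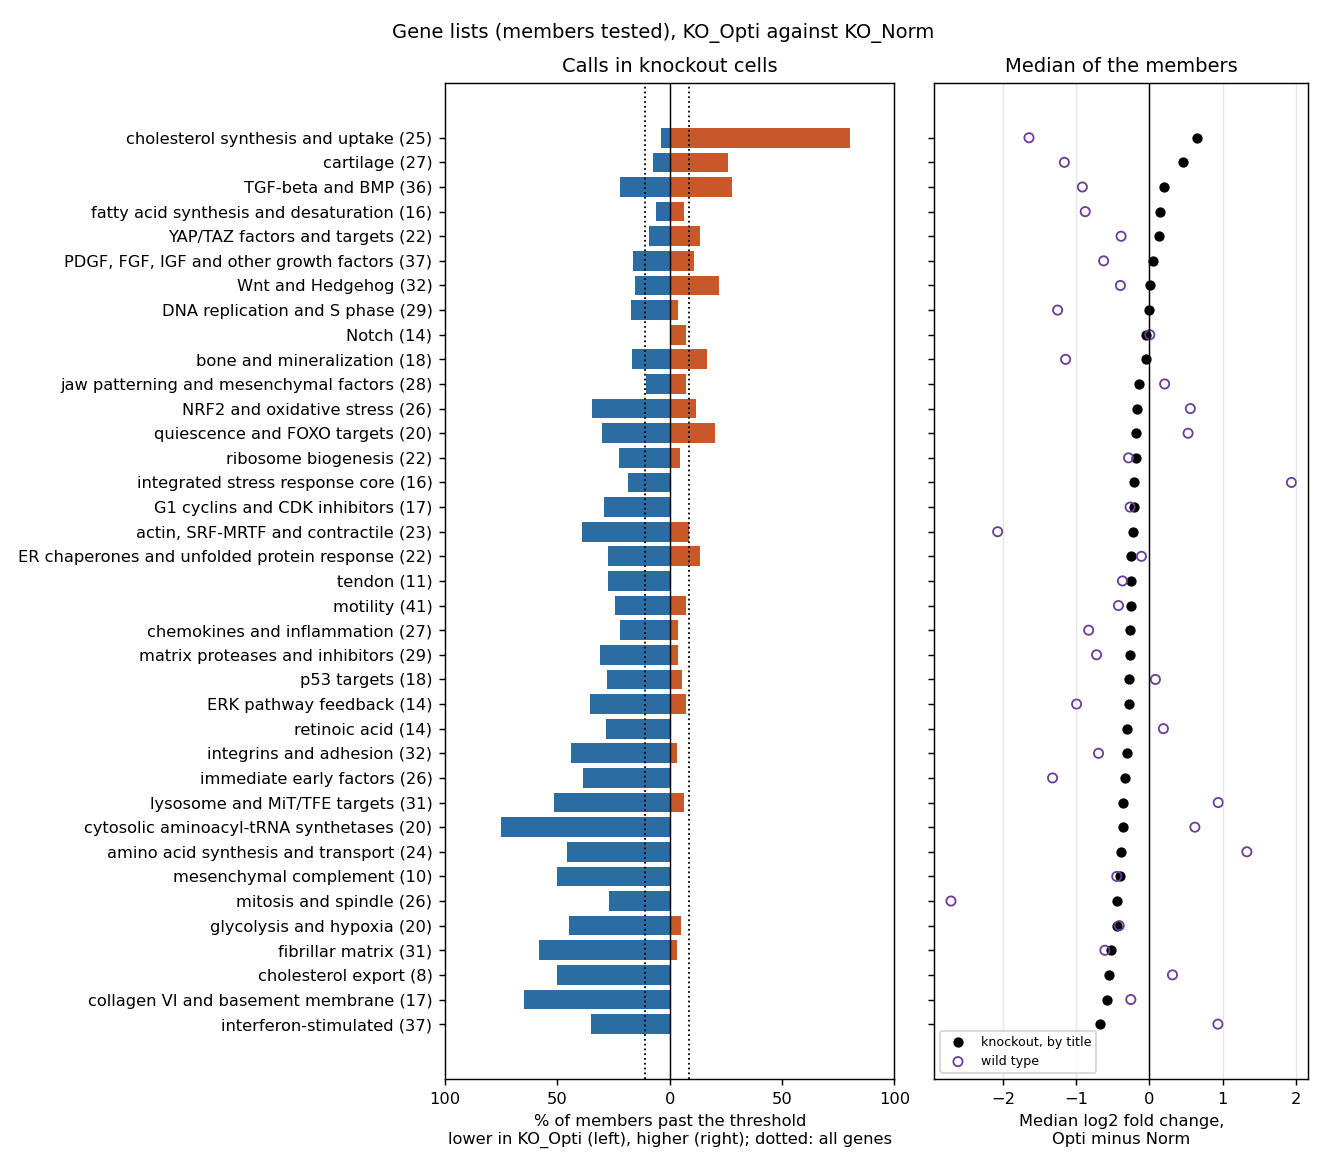
Each pathway list is a line, with the number of members tested in parentheses. Bars give the percentage of members past the threshold, lower in KO_Opti to the left and higher to the right, dotted lines the same over all genes tested (11.0 and 8.39%), and points the median log2 fold change in knockout cells (filled) and wild type cells (open). Cholesterol synthesis lies farthest to the right at a median of 0.65, and interferon-stimulated genes farthest to the left at -0.68.

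Retinoid genes included the largest decrease among called protein-coding or descriptively named genes whose groups did not overlap and whose knockout mean reached 5 CPM. Crabp1, a cytosolic retinoic acid binding protein, was at 8.01, 12.01 and 9.39 CPM in KO_Norm and 0.768, 0.590 and 0.822 CPM in KO_Opti (log2 fold change -3.75 ± 0.22, adjusted p = 1.58e-06). Crabp2 fell by 0.66 and Rbp4, a retinol carrier, by 1.47. Rbp4 was low, at a mean of 2.90 CPM in KO_Norm and 1.04 CPM in KO_Opti. In all 4 of 14 genes fell, 2 without KO_Opti replicate 1, KO_Opti replicate 3 or KO_Norm replicate 2. Of 28 jaw patterning and mesenchymal transcription factors 3 fell and 2 rose, near the 11.0% and 8.39% of all genes. Among the decreases was Twist1, a mesenchymal factor, at 72.7, 111 and 105 CPM in KO_Norm and 42.7, 51.8 and 49.4 CPM in KO_Opti (log2 fold change -1.01 ± 0.19, adjusted p = 0.00299). The number of decreases among these factors was 1 without KO_Opti replicate 1, KO_Opti replicate 3, KO_Norm replicate 2, KO_Norm replicate 3 or any WT_Opti library and 5 without KO_Norm replicate 1 or WT_Norm replicate 3.

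The other large decreases covered secreted and surface proteins. Nrcam, a neuronal adhesion molecule, was at 46.1, 38.5 and 46.1 CPM in KO_Norm and 6.72, 10.01 and 7.55 CPM in KO_Opti (log2 fold change -2.43 ± 0.14, adjusted p = 1.58e-06). Lrrc15, a surface protein of activated fibroblasts, was at 125, 93.7 and 87.8 CPM in KO_Norm and 18.1, 20.0 and 24.7 CPM in KO_Opti (log2 fold change -2.29 ± 0.16, adjusted p = 4.7e-06). Neither gene overlapped between groups. Serpinb2, a plasminogen activator inhibitor, fell by 2.64, Cpz, a carboxypeptidase that binds Wnt proteins, by 2.30, and Slco2a1, a prostaglandin transporter, by 2.15.

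Among the large increases were both protein-coding and noncoding genes. Palmd, palmdelphin, was at 1.75, 1.44 and 1.31 CPM in KO_Norm and 12.8, 12.9 and 12.9 CPM in KO_Opti (log2 fold change 3.10 ± 0.34, adjusted p = 0.000139), and its 3 KO_Opti libraries were nearly equal. Meg3, an imprinted noncoding RNA, was at 108, 109.5 and 100.1 CPM in KO_Norm and 747, 268 and 417 CPM in KO_Opti (log2 fold change 2.17 ± 0.36, adjusted p = 0.00161). Dnm3os, the host transcript of miR-199a-2 and miR-214, which lies antisense to Dnm3, was at 25.1, 29.1 and 21.8 CPM in KO_Norm and 188, 65.9 and 108 CPM in KO_Opti (log2 fold change 2.25 ± 0.32, adjusted p = 0.000622). KO_Opti replicate 1 was the highest library of Meg3 and Dnm3os, as it was of Xist, Carmn, Prr33 and Spaca6. Carmn, a noncoding RNA of smooth muscle cells, rose by 2.58, Prr33 by 2.67 and Spaca6 by 2.18.

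**Figure D3:**
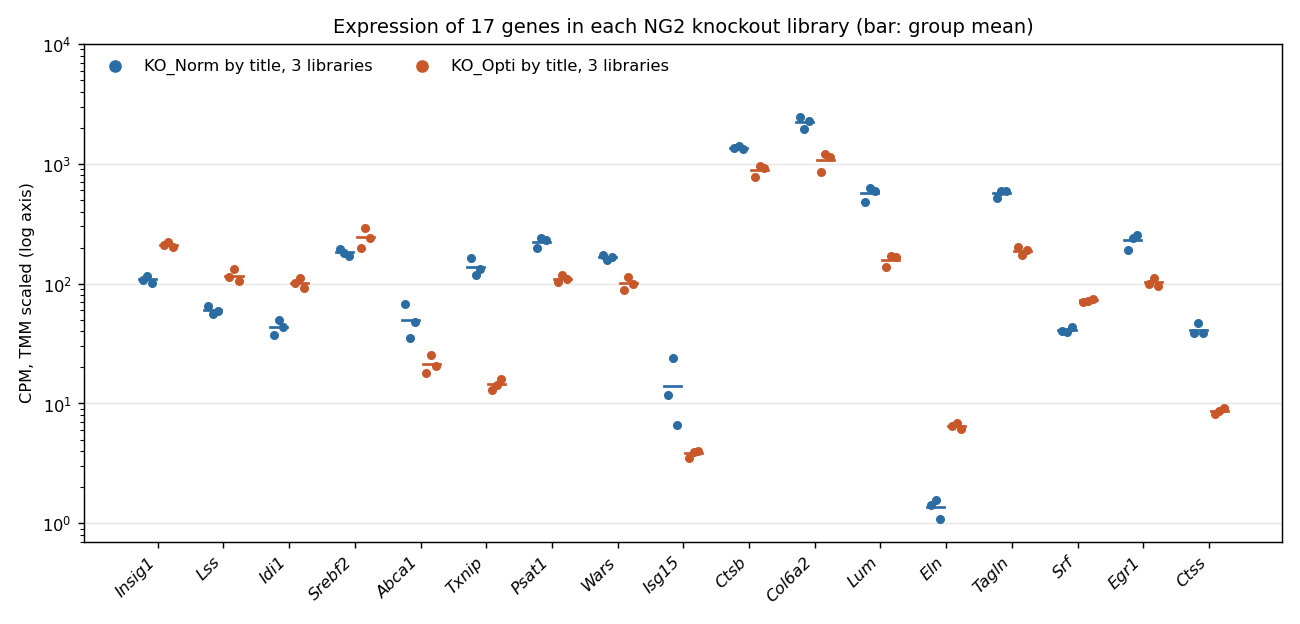
Points give the CPM of 17 genes in each of the 3 KO_Norm (blue) and 3 KO_Opti (orange) libraries on a log axis, and short bars the group means. Sterol genes such as Insig1 are higher in KO_Opti at a mean of 212 against 109 CPM, Txnip falls from a mean of 139 to 14.5 CPM, and the 3 KO_Norm libraries of Isg15 are spread widely.

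The noncoding part of the transcriptome was shifted in KO_Opti. This grouping by annotated gene type was made after the values were seen. Of 684 antisense genes 96 rose and 10 fell (median 0.62), of 554 lincRNAs 65 rose and 17 fell (0.36), and of 48 snoRNA genes 15 rose and none fell (1.68). Of 15066 protein-coding genes 1163 rose and 2009 fell (-0.04). The noncoding types lay near the count floor. Their median levels in the knockout libraries were 0.34 CPM for antisense genes, 0.315 for lincRNAs and 0.262 for snoRNA genes, against 17.6 for protein-coding genes. Of 16 tested snoRNA host genes with an Snhg name 10 rose and none fell, with a median of 1.09. Overlapping genes share reads where strand was not used, and whether the counting used strand is not given in the sources used here.

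The shift was smaller without KO_Opti replicate 1, the library with the highest noncoding and mitochondrial shares. The medians were then 0.48 for antisense genes, 0.25 for lincRNAs and 1.30 for snoRNA genes, with 32, 33 and 2 genes higher. Libraries were made from poly(A) RNA, from which mature snoRNAs are largely absent. Mitochondrially encoded mRNAs had a median of 0.74, and 2 of 13 passed, both higher. With each library left out in turn between 1 and 7 passed, the lowest number without KO_Opti replicate 1. The part of RNA quality was not tested.

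**Figure D4:**
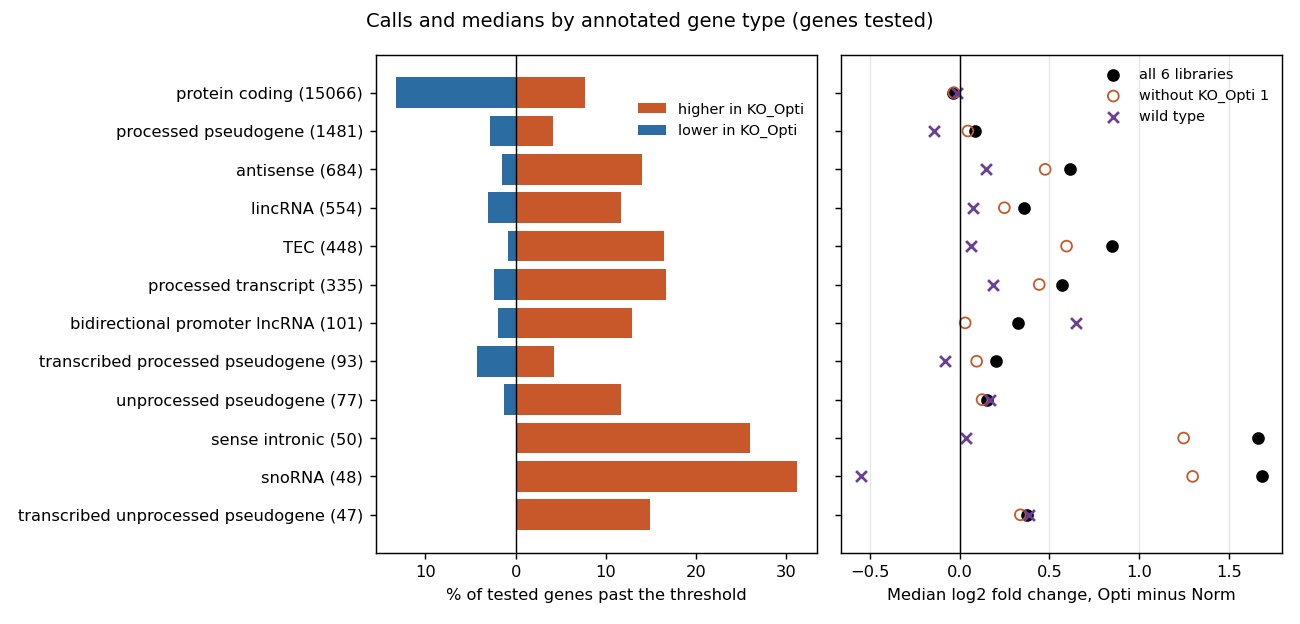
For each annotated gene type, with the number of genes tested, bars give the percentage past the threshold in each direction and points the median log2 fold change with all 6 knockout libraries, without KO_Opti replicate 1 and in wild type cells. The snoRNA genes have the highest knockout median at 1.68, and it is 1.30 without KO_Opti replicate 1. Their median level in the knockout libraries is 0.262 CPM.

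The knockout contrast was set beside the same contrast in wild type cells, where WT_Opti was compared with WT_Norm in one fit. The 2 contrasts share no library. In wild type cells 7616 genes passed, with 3874 higher in Opti (20.3%) and 3742 lower (19.6%), against 3709 in knockout cells. Of the 3709 knockout calls 1925 also passed in wild type cells (51.9% of the knockout calls and 25.3% of the wild type calls). By title 1161 of these had the same direction and 764 the opposite one, so by treatment entry 764 would be the same. Genes that fell in KO_Opti went the same way by title in 805 of 1290 shared calls, and genes that rose in 356 of 635. Across all genes tested the fold changes of the 2 contrasts had a Pearson correlation of 0.02, where genes are not independent replicates and all share the libraries of each contrast.

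Neither reading of the labels put all gene systems in the wild type order. Cholesterol synthesis and uptake genes had a wild type median of -1.64, with 22 of 25 lower in Opti and none higher, opposite to the knockout contrast by title. Lysosomal genes had a wild type median of 0.94 with 29 of 31 higher, and the tRNA synthetases 0.62 with 13 of 20 higher, also opposite by title. Mitosis genes (-2.71, all 26 lower), contractile genes (-2.07, 22 of 23 lower), immediate early genes (-1.32, 21 of 26 lower) and fibrillar matrix genes (-0.61, 19 of 31 lower) fell in wild type Opti, the same direction as in the knockout contrast by title. By treatment entry the first 3 systems would match the wild type direction and the last 4 would oppose it. No direction was assigned to the medium from these patterns, since that would set the labels by the outcome.

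**Figure D5:**
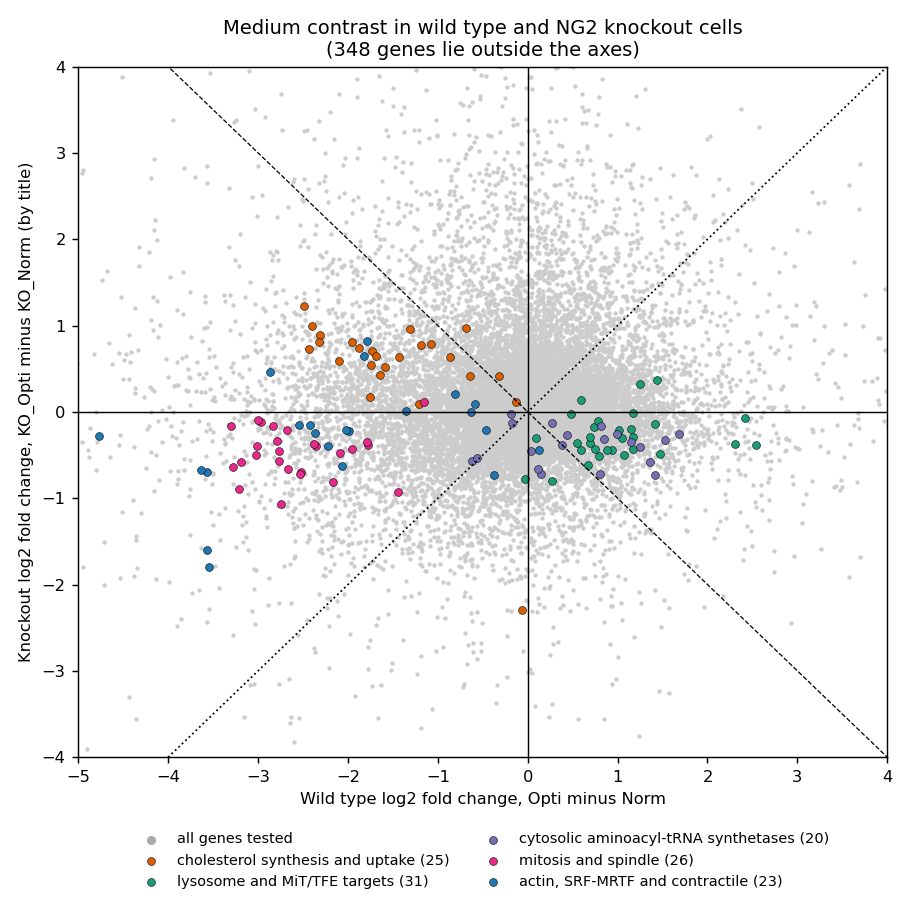
Each point is a gene, with the wild type log2 fold change (Opti minus Norm) on the horizontal axis and the knockout log2 fold change (KO_Opti minus KO_Norm, by title) on the vertical axis, and 5 lists are coloured. The dotted line marks equal changes and the dashed line equal changes of opposite sign. Sterol genes lie at the upper left (medians -1.64 and 0.65), lysosomal genes at the lower right (0.94 and -0.36) and mitosis genes at the lower left (-2.71 and -0.44).

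The difference between the responses was tested directly as an interaction. By title the knockout response differed from the wild type response for 6007 genes (31.4%) and by treatment entry for 6635 (34.7%). For 3253 genes (17.0%) it differed under both readings, and 992 of these were among the 3709 knockout calls. Mitosis genes differed under both readings in 25 of 26 cases, contractile genes in 20 of 23, immediate early genes in 21 of 26 and the core of the integrated stress response in 15 of 16. Lysosomal genes did so in 20 of 31, cholesterol synthesis genes in 17 of 25, fibrillar matrix genes in 7 of 31 and collagen VI and basement membrane genes in 3 of 17.

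The mitosis and stress response genes show the levels behind this difference. Mki67 was at 43.97, 29.1 and 32.7 CPM in WT_Norm and 2.98, 3.73 and 4.17 CPM in WT_Opti, a log2 fold change of -3.28 ± 0.23 in wild type cells against -0.63 ± 0.21 in knockout cells. The knockout libraries lay between the wild type groups for Mki67 under both titles. Asns was at 68.5, 76.8 and 64.7 CPM in WT_Norm and 212, 229 and 249 CPM in WT_Opti, a change of 1.72 ± 0.11 against -0.68 ± 0.11. All 6 knockout libraries of Asns were above every WT_Norm library. Acta2 was at 1955, 1557 and 1853 CPM in WT_Norm and 158, 134 and 161 CPM in WT_Opti, a change of -3.56 ± 0.13 against -0.70 ± 0.12. Both knockout groups of Acta2 lay above every WT_Opti library.

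For genes with opposite directions, the 2 readings left different remainders. Idi1 was at 78.9, 89.6 and 54.9 CPM in WT_Norm and 11.97, 11.9 and 15.9 CPM in WT_Opti, a change of -2.49 ± 0.18 against 1.23 ± 0.18 in knockout cells by title and the same size with the sign turned by treatment entry. Insig1 changed by -0.69 ± 0.09 in wild type cells and by 0.97 ± 0.09 in knockout cells. Txnip was at 55.4, 57.7 and 39.1 CPM in WT_Norm and 165, 149 and 141 CPM in WT_Opti and changed by 1.58 ± 0.16, against -3.26 ± 0.17. The KO_Norm libraries of Txnip were close to WT_Opti and the KO_Opti libraries were below every wild type library.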

How the data were processed

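Primary mouse fibrochondrocytes were measured by bulk RNA-seq in 12 libraries, 3 in each of 4 groups, of which the 6 NG2 knockout libraries are the subject. Libraries were made from poly(A) RNA with a stranded TruSeq kit and sequenced in pairs on a NovaSeq instrument. Per the submitters' processing notes the authors used FastQC, HISAT2, StringTie and edgeR, with versions, genome build and use of strand in counting not given in the sources used here. The authors deposited raw counts per gene and FPKM values for 31075 genes, and 99.71% of the gene identifiers matched GENCODE M21. The file holds no fold changes or p-values. The labels give passage 4, whereas the study's methods describe primary cells of lower passage.

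Genes were kept by filterByExpr with a minimum count of 10, which left 19118. All 12 libraries were fitted in edgeR 4.0.16 (R 4.3.3) with a mean per group, TMM factors and the quasi-likelihood test, and p-values were adjusted by the Benjamini-Hochberg method over all genes tested, with a threshold of 0.05. The spread between libraries of a group, as the common dispersion, was 0.0646 (coefficient of variation 25.4%). The fit was tested on simulated data. Standard errors come from the fitted fold change and its test. Tables were handled with Python 3.11.15.

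The members, 51 gene lists and tests were chosen with earlier results of these data known. Lists are described by counts and medians, without a set test. Named genes are the 4 members of a list with the smallest adjusted p, its textbook members and the genes of the study. Sex-linked and cell type markers are also named. So are the 8 largest changes each way whose groups did not overlap and whose knockout mean reached 5 CPM. These were ranked among called genes that are protein coding or whose symbol is not a clone or placeholder name. Cpxm1, single exceptions of a list, genes behind small counts, genes named for a promoter match, the roles in the TGF-beta list and the grouping by gene type were chosen after values were seen. Some members of the lists are counted but not reported here by name. Symbols follow the deposited table. Promoters are 300-base windows of RefSeq start sites on GRCm38.p6 (32851 windows).

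Alternatives were other scalings (RLE, upper quartile, library size only), no low-count filter or a CPM filter, DESeq2 1.42.0, limma 3.58.1 on the deposited FPKM values with pseudocounts of 0.1 and 1, the knockout libraries alone, a replicate block, a Y-linked covariate, each library left out in turn, and an adjusted p of 0.01.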

Additional observations from a re-analysis of the deposited data

Results flagged for a closer look

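Of the 209 genes named here, 110 had a knockout response that differed from the wild type response under both readings of the knockout labels, tested as an interaction in edgeR at an adjusted p of 0.05. Each value below is the log2 fold change of knockout cells (KO_Opti minus KO_Norm, by title) minus that of wild type cells (WT_Opti minus WT_Norm), and 56 were above 0 and 54 below. By treatment entry the knockout part of each value turns its sign. The cause of these differences was not tested.

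Among proliferation and growth signaling genes, the difference was 1.67 for Ccnb2, 2.65 for Mki67, 1.39 for Cdk1, 0.72 for Ccne1, -0.64 for Cdk6, -0.97 for Cdkn1a, 0.83 for Myc and 1.51 for Ccnd1. For immediate early and ERK feedback genes it was 1.06 for Egr1, 0.68 for Zfp36, 0.76 for Junb, 1.45 for Fos, 1.61 for Jun and 1.08 for Dusp6. Contractile genes were all above 0, at 1.97 for Tagln, 2.61 for Srf, 1.75 for Actg2, 2.87 for Acta2, 2.96 for Myl9, 2.12 for Actg1, 1.77 for Cnn2, 3.32 for Vcl, 2.39 for Filip1l and 2.27 for Actb. For YAP and TAZ targets it was 0.57 for Ajuba, 6.32 for Ccn2 and 4.41 for Ccn1, and for growth factor genes -0.71 for Vegfd, -1.08 for Igfbp2 and 1.21 for Fgf2. For TGF-beta and BMP genes it was 0.69 for Skil, 3.65 for Id1, 2.44 for Gdf10, 1.77 for Fst and 5.05 for Id3, and for Wnt genes -1.72 for Rspo2, 1.57 for Wnt10b and 1.05 for Rspo3.

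Among metabolic and stress genes, the sterol genes Hmgcs1 and Idi1 stood at 2.77 and 3.72. The stress response genes were all below 0, at -2.40 for Asns, -1.78 for Ddit4, -1.85 for Gdf15, -1.13 for Atf4 and -3.81 for Ddit3, and so were genes of amino acid supply and tRNA charging, at -2.30 for Phgdh, -1.49 for Psat1, -1.89 for Shmt2, -2.15 for Wars, -0.86 for Farsb, -1.25 for Yars, -1.84 for Aars and -0.98 for Iars. Lysosomal genes were below 0 as well, at -1.08 for Ctsz, -6.18 for Atp6v0d2, -1.07 for Flcn, -0.92 for Mcoln1, -0.91 for Ctsd and -0.50 for Tfe3. The value was -4.84 for Txnip, -1.87 for Arrdc4, 0.45 for Bcl6, -0.79 for Irs2 and -0.78 for Map1lc3b in the quiescence list. Single genes of other stress and metabolic lists stood at -3.78 for Hmox1, -1.57 for Hspa5 and 0.75 for Ldha.

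Among matrix, adhesion and motility genes, the difference was -2.15 for Col5a3, -0.76 for Dcn, 3.04 for Eln, 0.87 for Timp1 and 3.34 for Adamts9. It was 1.17 for Col2a1, 2.76 for Cilp, 5.97 for Acan, 1.5 for Bglap and 0.45 for Runx2 in cartilage and bone genes, and -0.92 for Sdc2, 2.15 for Itga1, -0.54 for Arpc2, -0.46 for Rhoa, 1.60 for Rnd3 and 3.99 for Has2 in adhesion and motility genes. Retinoid and patterning genes stood at -4.99 for Crabp1, -2.71 for Crabp2 and -1.11 for Twist1.

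Immune and interferon genes were below 0, at -0.72 for Psmb8, -1.17 for Gbp2, -0.59 for Ptgs1, -1.76 for Il1rl1 and -0.80 for Serping1. Markers of myeloid cells and osteoclasts stood at -3.18 for Ctss, -2.06 for C1qa, -1.24 for Ptprc and -1.17 for Acp5, and the marker Ncam1 at -0.44. The sex-linked genes stood at 2.46 for Xist, -0.90 for Ddx3y and -0.63 for Kdm5d, beside which the mix of sexes cannot be told apart from the response. The remaining genes stood at -1.37 for Cpxm1, -3.28 for Nrcam, 1.26 for Lrrc15, 3.17 for Palmd, -2.07 for Cpz, 2.56 for Serpinb2, -0.50 for Mapk3, 3.27 for Prr33, 2.78 for Dnm3os, 2.27 for Spaca6 and 0.61 for Prkca.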

How the results depend on the processing

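Of the 209 named genes 173 passed the test in KO_Opti against KO_Norm. Where the 23 alternative fits gave a value, none of the 173 changed sign, and the number that lost its call was 0 with RLE factors or DESeq2, 1 with upper quartile factors, 12 with library size only, 13 without the low-count filter, 10 with the knockout libraries alone, 20 and 23 on the FPKM values, 59 with the Y-linked covariate and 2 to 24 with each library left out in turn. The 3709 calls became 1957 with the Y-linked covariate, 1638 at an adjusted p of 0.01 and between 2091 and 4232 with each library left out in turn. The 1604 increases became 2630 with library size only, 851 with the Y-linked covariate, 652 at an adjusted p of 0.01 and 847 to 1773 with each library left out in turn. The 2105 decreases became 1124, 1106, 986 and 1244 to 2459 in the same order, and 901 and 880 on the FPKM values with pseudocounts of 0.1 and 1. The 6007 genes with different responses became 3463 with the Y-linked covariate, 3532 at an adjusted p of 0.01 and 4816 to 6087 with each library left out in turn. The cause of these changes was not tested. The Y-linked covariate follows the knockout groups, so its counts cannot tell the mix of sexes from the medium. With DESeq2 4664 genes passed, 3707 of them main calls with the same sign. The wild type count of 7616 moved by less than 1.5 times under alternatives chosen after seeing the data. Of 2346 list counts recomputed, 441 moved by over 1.5 times.

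Samples with the same replicate number did not deviate together (correlations of -0.123, 0.009 and -0.08 in knockout and 0.079, -0.034 and 0.05 in wild type cells). Pairs with different numbers lay between -0.103 and 0.162 in knockout and between -0.087 and 0.035 in wild type cells. With 3 libraries a group these values cannot decide whether the numbers pair the libraries. With the replicate block 2572 genes passed, 2489 of them main calls with the same sign, and 17 of the 173 named genes lost the call. The medium, the mix of sexes, the myeloid content and the ribosomal RNA entry moved together. With this, and with 3 libraries a group, small changes near the threshold are the least certain.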
